A study of Mus musculus with 9 samples.

Results

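The class I antigen processing machinery is followed here through 9 genes: the transactivator Nlrc5, the immunoproteasome subunits Psmb8, Psmb9 and Psmb10, the peptide transporter subunits Tap1 and Tap2, the loading factors Tapbp and Tapbpl, and the light chain B2m. They were taken by gene symbol, and all 9 were among the 1710 genes that the deposited table lists. Wild-type mice (genotype WT) received a stereotaxic injection, and tissue labelled brain ctx was collected on day 10 from the centre of the injected area. RNA was sequenced in 3 libraries each of the groups PBS (the vehicle), LowDose and HighDose, where the dose is that of an adeno-associated virus (AAV) vector. The sources used here do not give the amounts behind the doses, the vector's cargo, or the strain and age of the mice. Nor do they say whether the libraries of a group came from separate animals, so p-values measure the spread between these libraries, which may be technical.

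Class I molecules show short peptides from inside a cell to CD8+ T cells. Cytosolic proteins are cut by the proteasome, in which interferon-induced subunits can replace the constitutive catalytic ones to form the immunoproteasome. The peptides are pumped into the endoplasmic reticulum by the Tap1-Tap2 transporter and loaded, with the help of tapasin, onto a heavy chain paired with beta-2-microglobulin. NLRC5 acts in the nucleus on the promoters of class I heavy chains and of several of these partner genes, and in resting brain the pathway is known to run at a low level.

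Positions are those of GENCODE M21 on mm10. Psmb9 (ENSMUSG00000096727, chr17:34181987-34187764, minus strand), Tap1 (ENSMUSG00000037321, chr17:34187553-34197225, plus), Psmb8 (ENSMUSG00000024338, chr17:34197721-34201454, plus) and Tap2 (ENSMUSG00000024339, chr17:34203527-34216321, plus) follow each other within 34.3 kb of the class II region. Tapbp (ENSMUSG00000024308, chr17:33915899-33929292, plus) lies on the same chromosome, and these 5 genes span 300.4 kb. Psmb10 (ENSMUSG00000031897, chr8:105935735-105938444, minus) and Nlrc5 (ENSMUSG00000074151, chr8:94434356-94527272, plus) share chromosome 8 but are far apart. B2m (ENSMUSG00000060802) is at chr2:122147686-122153083, plus, and Tapbpl (ENSMUSG00000038213) at chr6:125223933-125231860, minus. Whether counting used the strand of reads is not given, and some exons are shared with other genes. Psmb9 and Tap1, which start head to head, share 212 exon bases on opposite strands, so reads there cannot be assigned to one of them without strand. Shared exon bases with other genes also exist in Psmb8 (498), Tap2 (533 and 165), Tapbp (904 and 149) and Nlrc5 (78), and in none of Psmb10, Tapbpl and B2m.

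Promoter sequence was read for the 6 of the 9 genes that have a window in the RefSeq table (GRCm38.p6). Nlrc5, Tap2 and Tapbpl have no window there. The stretch up to 250 bases before each start was searched on both strands for 5 motifs: the interferon-stimulated response element core (GAAA, any 2 bases, GAAA), the gamma-activated site TTCNNNGAA, a kappa-B site (GGGAC followed directly by TTTCC), the core TGACG of the X2 box of class I and II promoters, and CCAAT. Only B2m held 4 of the 5. In its sequence below, on the plus strand at chr2:122147437-122147685 and ending just before the gene, the capitals mark in order the interferon element, the kappa-B site, the X2 core and CCAAT. The kappa-B site and CCAAT are on the minus strand, so their reverse complement is seen.
B2m: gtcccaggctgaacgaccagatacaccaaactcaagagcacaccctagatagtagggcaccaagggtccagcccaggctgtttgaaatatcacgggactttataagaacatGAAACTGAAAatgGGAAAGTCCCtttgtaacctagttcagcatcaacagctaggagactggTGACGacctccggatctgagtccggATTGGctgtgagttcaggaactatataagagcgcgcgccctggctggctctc
The stretch between the starts of Psmb9 and Tap1, which are 225 bases apart, serves as upstream sequence for both, although exons of GENCODE transcripts of Psmb9 reach into it. It held 1 CCAAT and 1 X2 core, shown here in capitals with their flanks on the plus strand at chr17:34187324-34187348 and chr17:34187460-34187484.
Psmb9 and Tap1, CCAAT: gctcggctttCCAATcagcggctgc
Psmb9 and Tap1, X2 core: cagagacaggTGACGacagagggtc
The Psmb8 window held a gamma-activated site, in capitals, before a RefSeq start that lies 474 bases inside the GENCODE gene. The 29 bases shown, on the plus strand at chr17:34198088-34198116, all lie in an exon of the GENCODE transcript Psmb8-201.
Psmb8: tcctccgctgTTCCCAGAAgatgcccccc
The Tapbp window, before a RefSeq start that lies 3579 bases inside the GENCODE gene, held CCAAT at 2 places and none of the other motifs. The Psmb10 window held none of the 5. Of all 32851 windows of that length, 2.98% held the interferon core, 7.02% the gamma-activated site, 0.14% the kappa-B site, 17.8% TGACG and 33.8% CCAAT. The matches are a description of letters and not of binding.

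Library totals, recovered from the counts, FPKM values and transcript lengths, were 18300000 to 23700000. A level in CPM is the count divided by that total, times 1000000, and 3 counts are 0.126 to 0.164 CPM. Every listed gene differs at least 2-fold in mean FPKM between some pair of groups, so counts of genes below describe a table chosen for such differences. The 9 genes reach 2-fold only against HighDose, since LowDose over PBS in mean FPKM ran from 0.946 (Tap1) to 1.52 (Psmb9). Calls and p-values of the HighDose comparisons thus rest on the differences for which the table was chosen. They set a change beside the spread between libraries and are no independent evidence of a rise. In HighDose against PBS, 1366 of 1583 tested genes, 86.3%, were called higher and 169 lower by edgeR's quasi-likelihood test (Benjamini-Hochberg adjusted p under 0.05), with a median log2 change of 1.90 over all tested genes. Scaling within the listed genes by TMM gave 600 higher and 464 lower and took that median to 0.19.

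All 9 genes rose in HighDose. Their counts together made up 0.0129%, 0.0150% and 0.0127% of the PBS libraries, 0.0136%, 0.0166% and 0.0154% of the LowDose libraries, and 0.119%, 0.188% and 0.188% of the HighDose libraries. As a sum, the level went from 135 ± 12.97 CPM (SD, n = 3) in PBS and 152 ± 15.2 CPM in LowDose to 1649 ± 395 CPM in HighDose. In each of the 9 genes every HighDose library lay above every PBS and LowDose library, as was also true of 85.8% of all tested genes against PBS and 86.5% against LowDose. The 9 changes against PBS ran from 1.998 to 6.73 on the log2 scale with a median of 3.77, above the median of 1.90 over all tested genes. In tissue, more cells that carry a transcript and more transcript per cell cannot be told apart.

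**Figure D1:**
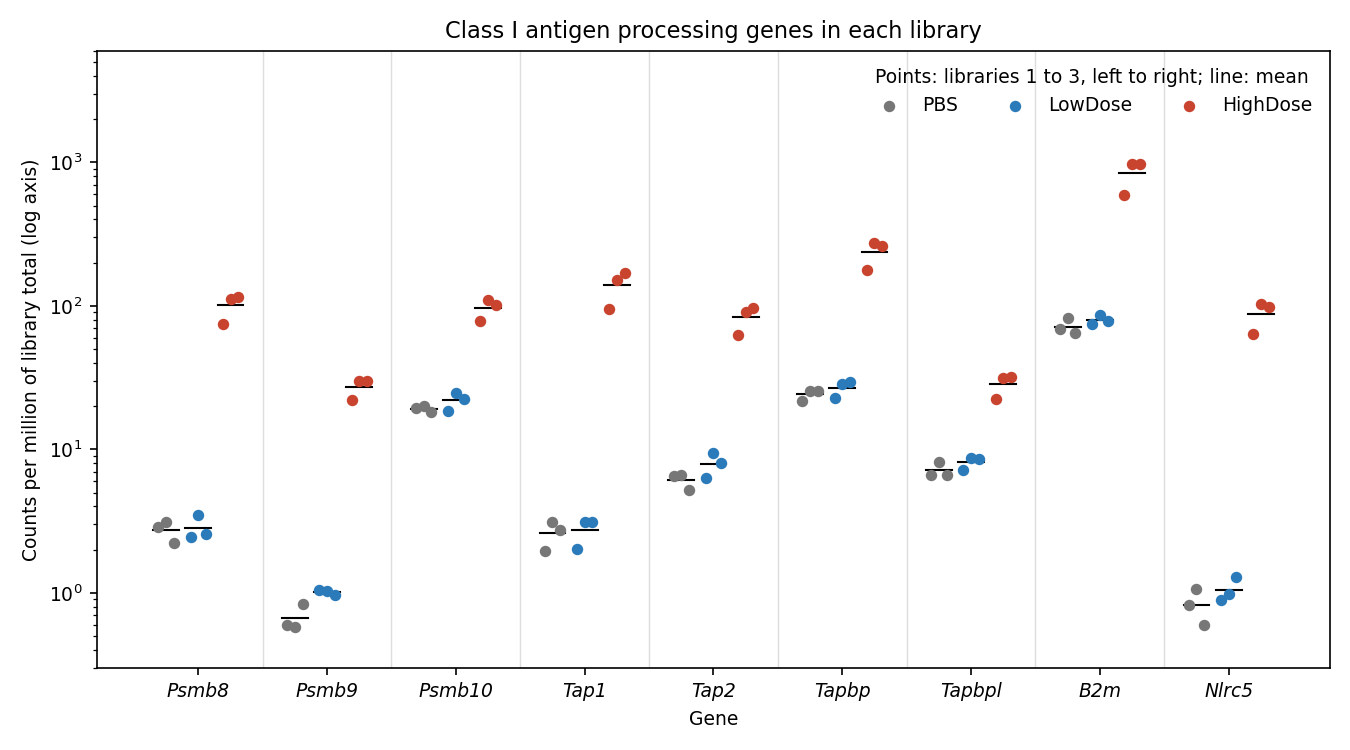
Level of each of the 9 genes in every library, in CPM on a log axis, by group, with 1 point per library and the mean of each group as a short line. In each gene the 3 HighDose libraries sit above the 6 PBS and LowDose libraries, which lie close together.

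The transactivator Nlrc5 had the lowest level per length in PBS and the steepest rise. It stood at 0.818, 1.07 and 0.599 CPM in PBS, at 0.885, 0.989 and 1.28 CPM in LowDose and at 63.5, 103 and 97.5 CPM in HighDose. PBS and LowDose interleave, and HighDose is apart from both. The log2 change of HighDose against PBS was 6.73 ± 0.31 (SE), a 106-fold rise (adjusted p = 2.94e-23, edgeR), the 85th highest of the 1583 tested genes.

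The immunoproteasome subunits rose unevenly. Psmb8, which carries chymotrypsin-like activity, was at 2.89, 3.10 and 2.21 CPM in PBS, 2.44, 3.46 and 2.56 CPM in LowDose and 74.9, 112 and 116 CPM in HighDose. Its log2 change against PBS was 5.20 ± 0.27 (36.9-fold, adjusted p = 1.96e-21, edgeR). Psmb9, which replaces the caspase-like subunit, was the least abundant of the 3, at 0.600, 0.581 and 0.830 CPM in PBS, 1.05, 1.03 and 0.959 CPM in LowDose and 22.2, 29.8 and 29.9 CPM in HighDose. Its change was 5.33 ± 0.30 (40.2-fold), close to that of Psmb8. Psmb10, the trypsin-like subunit, was already the most abundant of the 3 in PBS, with 19.5, 19.95 and 18.2 CPM, and in LowDose, with 18.6, 24.8 and 22.6 CPM. In HighDose it reached 79.0, 111 and 101 CPM, about the level of Psmb8. It rose by 2.34 ± 0.22 (5.05-fold), the smallest change among the proteasome subunits.

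The transporter subunits, which pump peptides only as a pair, also moved by different amounts. Tap1 was at 1.96, 3.10 and 2.72 CPM in PBS, 2.02, 3.10 and 3.10 CPM in LowDose and 95.5, 150 and 170 CPM in HighDose. Tap2 was at 6.49, 6.59 and 5.21 CPM in PBS, 6.28, 9.49 and 8.07 CPM in LowDose and 62.2, 90.1 and 96.9 CPM in HighDose. Tap1 was thus below Tap2 in every PBS and LowDose library and above it in every HighDose library. The ratio per length of transcript is given below. The log2 changes of HighDose against PBS were 5.73 ± 0.29 for Tap1 (53.1-fold) and 3.77 ± 0.25 for Tap2 (13.6-fold).

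Of the loading factors, Tapbp (tapasin, which bridges the transporter and the empty class I molecule) ran from 21.7 to 25.6 CPM in PBS, 22.6 to 29.3 CPM in LowDose and 179 to 276 CPM in HighDose, a log2 change of 3.30 ± 0.24 (9.83-fold). Tapbpl, a tapasin relative that edits peptides outside the transporter complex, moved least of the 9 genes. It was at 6.66, 8.18 and 6.59 CPM in PBS, 7.12, 8.64 and 8.62 CPM in LowDose and 22.4, 31.3 and 32.0 CPM in HighDose. Its log2 change of 1.998 ± 0.23 (3.99-fold, adjusted p = 3.29e-10, edgeR) exceeded the all-gene median by 0.10. With the 3 scalings within the listed genes it was 0.29 to 0.32 and not called (adjusted p = 0.0549 to 0.0651), while the other 8 genes were still called higher. Under TMM those 8 ran from 0.64 for Psmb10 to 5.02 for Nlrc5.

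B2m, the light chain shared by all class I molecules, was the most abundant of the 9 genes in every group. It stood at 68.5, 82.2 and 64.7 CPM in PBS, 74.6, 85.9 and 77.8 CPM in LowDose and 595, 974 and 973 CPM in HighDose. Its log2 change was 3.56 ± 0.24 (11.8-fold, adjusted p = 2.13e-17, edgeR). Its share of the 9-gene sum was 52.9% ± 1.82 (SD, n = 3) in PBS, 52.4% ± 2.33 in LowDose and 51.2% ± 1.16 in HighDose. Without B2m the other 8 genes summed to 63.6 ± 3.99 CPM in PBS, 72.5 ± 10.0 CPM in LowDose and 802 ± 177 CPM in HighDose.

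None of the 9 genes passed the test in LowDose against PBS, where 2.59% of the tested genes did (7 higher and 34 lower, and 12 higher and 50 lower with the replicate number as a block). Leaving out 1 library gave 5 to 22 higher and 18 to 57 lower, with 22 and 57 without LowDose replicate 1 and 18 lower without LowDose replicate 3. None had an unadjusted p under 0.05 in edgeR or in DESeq2's Wald test, against 11.7% of all tested genes in edgeR. In limma on log2(FPKM + 0.1) 1 did, Psmb9 (0.53, adjusted p = 0.400). With edgeR scaled to the sum of listed counts 6 of the 9 genes did (lowest adjusted p = 0.0999). Each fitted change was above 0, from 0.05 for Psmb8 to 0.59 for Psmb9, with a median of 0.18 and adjusted p-values of 0.552 to 0.976 (edgeR). Between libraries with the same number, LowDose was above PBS in all 3 pairs for Psmb9, Tap1, Tapbp, Tapbpl and B2m, as for 15.6% of the tested genes, and in 2 of 3 pairs for the other 4 genes. The fitted changes of Psmb8 and Tap1 turned below 0 (-0.12 and -0.03) without LowDose replicate 2. Psmb9 alone had all its LowDose libraries above all its PBS libraries, as 6.57% of the tested genes did, and its change of 0.59 ± 0.34 has a 95% interval of -0.10 to 1.28. The interval for Nlrc5 ran from -0.34 to 1.01, for Tap2 from -0.10 to 0.86, for Tap1 from -0.48 to 0.62 and for Psmb8 from -0.48 to 0.58. Those of Psmb10 (-0.24 to 0.63), Tapbpl (-0.29 to 0.66), B2m (-0.30 to 0.59) and Tapbp (-0.30 to 0.58) were of like width. Intervals of this width leave room for changes of either sign, and only those of Nlrc5 and Psmb9 reach past 1 on the log2 scale.

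Against LowDose, HighDose was higher in all 9 genes by edgeR's test, as were 88.1% of the tested genes, although Tapbpl changed sign when scaled to the listed counts. This contrast shares the HighDose libraries with the one above. The log2 changes were 6.39 ± 0.30 for Nlrc5, 5.66 ± 0.29 for Tap1, 5.15 ± 0.27 for Psmb8, 4.74 ± 0.29 for Psmb9, 3.41 ± 0.24 for B2m, 3.39 ± 0.24 for Tap2, 3.16 ± 0.23 for Tapbp, 2.14 ± 0.22 for Psmb10 and 1.81 ± 0.23 for Tapbpl. The median over the 9 genes was 3.41, beside 1.88 over all tested genes, and Tapbpl was 0.07 below the latter. Scaled to the sum of listed counts, Tapbpl turned to -0.07 and Psmb10 fell to 0.26, neither of them called (adjusted p = 0.669 and 0.127).

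**Figure D2:**
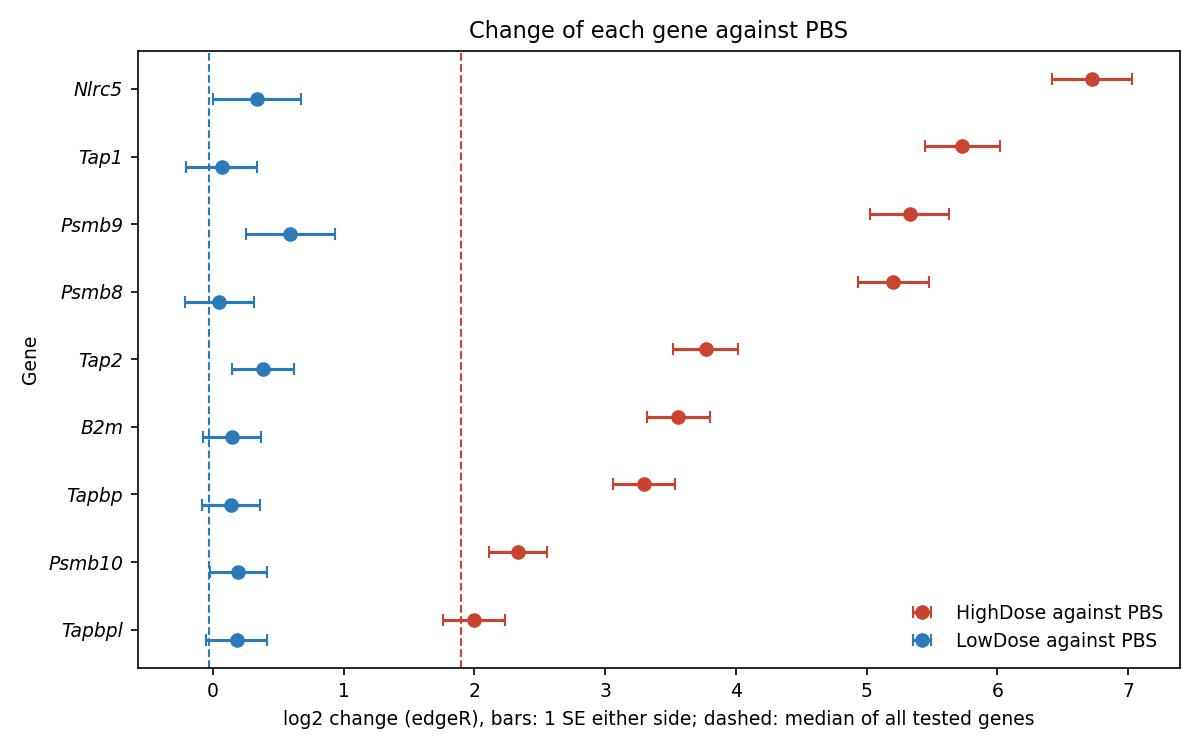
Log2 change of each of the 9 genes against PBS in HighDose (red) and LowDose (blue), from edgeR's quasi-likelihood fit, with bars of 1 SE to either side and dashed lines at the median of all tested genes. The LowDose points lie between 0.05 and 0.59, and the HighDose points run from Tapbpl at 1.998, by the dashed line at 1.90, to Nlrc5 at 6.73.

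Levels per length of transcript (FPKM) allow the genes to be ranked within a group. In PBS the mean order was B2m (83.5 FPKM), Psmb10 (14.7), Tapbp (9.08), Tapbpl (3.04), Psmb8 (2.81), Tap2 (1.77), Tap1 (1.04), Psmb9 (0.493) and Nlrc5 (0.180). Only Tapbpl and Psmb8 overlapped among neighbours in that order. In LowDose the order was the same, with B2m at 92.4 FPKM and Nlrc5 at 0.193 FPKM, and Tapbpl, Psmb8 and Tap2 overlapped in turn, as did Tap1 and Psmb9. In HighDose B2m stayed first at 985 FPKM, and Psmb8 (98.2), Tapbp (89.9) and Psmb10 (74.0) came next with overlapping libraries. Tap1 (47.6) stood apart from its neighbours, and Tap2 (24.1), Psmb9 (21.3), Nlrc5 (16.8) and Tapbpl (12.1) closed the order, each overlapping the next. In the order of means Tapbpl thus went from the fourth place to the last, where its libraries overlapped those of Psmb8 and of Nlrc5. The place of Nlrc5 also depends on its length, which the deposited values put at 3029 to 6658 bases between libraries.

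Partner genes whose products work in 1 complex or at 1 step were compared as FPKM ratios within each library, which do not depend on the library total. Of 5 ratios, 4 had HighDose libraries outside the PBS range. Each of these 4 gave an exact two-sided permutation p of 0.1, the smallest that 3 against 3 libraries allow, and 0.125 after adjustment over the 5 ratios. None can therefore pass a threshold of 0.05.

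Psmb10 to Psmb8 was 4.73, 5.01 and 6.15 in PBS, 5.47, 5.75 and 6.36 in LowDose and 0.830, 0.778 and 0.682 in HighDose. The trypsin-like subunit's transcript thus exceeded that of the chymotrypsin-like one in the 6 PBS and LowDose libraries and was below it in the 3 HighDose libraries, a difference in mean log2 ratio of -2.79. Psmb9 to Psmb8 was 0.140, 0.141 and 0.270 in PBS, 0.300, 0.231 and 0.262 in LowDose and 0.241, 0.216 and 0.203 in HighDose. These values overlap, and the difference of 0.33 between HighDose and PBS had an exact permutation p of 0.4, also 0.4 after adjustment. Without PBS replicate 3 the difference was 0.64.

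Tap1 to Tap2 was 0.351, 0.576 and 0.901 in PBS, 0.379, 0.380 and 0.517 in LowDose and 1.79, 1.97 and 2.10 in HighDose, a rise of 1.78 in mean log2 ratio or 3.44-fold. The spread in PBS is wide (SD 0.68 on the log2 scale), and PBS replicate 3 lies highest of that group. The length that count, FPKM and library total imply for Tap1 was 2000 bases there, against 2973 and 2817 in PBS replicates 1 and 2. An FPKM ratio depends on the lengths used. From CPM in place of FPKM the rise was 1.97. Tapbpl to Tapbp was 0.348, 0.365 and 0.292 in PBS, 0.366, 0.332 and 0.314 in LowDose and 0.140, 0.128 and 0.138 in HighDose, which is -1.30 on the log2 scale. B2m to the sum of the classical heavy chains H2-K1 and H2-D1 was 2.21, 2.31 and 2.08 in PBS, 2.49, 1.97 and 1.90 in LowDose and 1.41, 1.46 and 1.42 in HighDose. That is -0.62 on the log2 scale: the values of the 2 heavy chains rose by more than that of their light chain. Heavy chain genes are close copies, among which reads could be split. Counts were not whole for H2-D1 in 3 PBS, 1 LowDose and 3 HighDose libraries, and were whole for H2-K1 in every library. The effect of split reads on this ratio was not tested. H2-K1 went from 25.8, 27.5 and 25.04 CPM in PBS to 400, 616 and 639 CPM in HighDose. LowDose against PBS overlapped in all 5 ratios, with exact permutation p-values of 0.3 to 0.9. Taken as pairs of libraries with the same number, Psmb10 to Psmb8 was higher in LowDose in 3 of 3 pairs, by 0.15 on the log2 scale, with an exact sign-flip permutation p of 0.25, the smallest that 3 pairs allow. The other 4 ratios were higher in 1 or 2 of the 3 pairs.

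**Figure D3:**
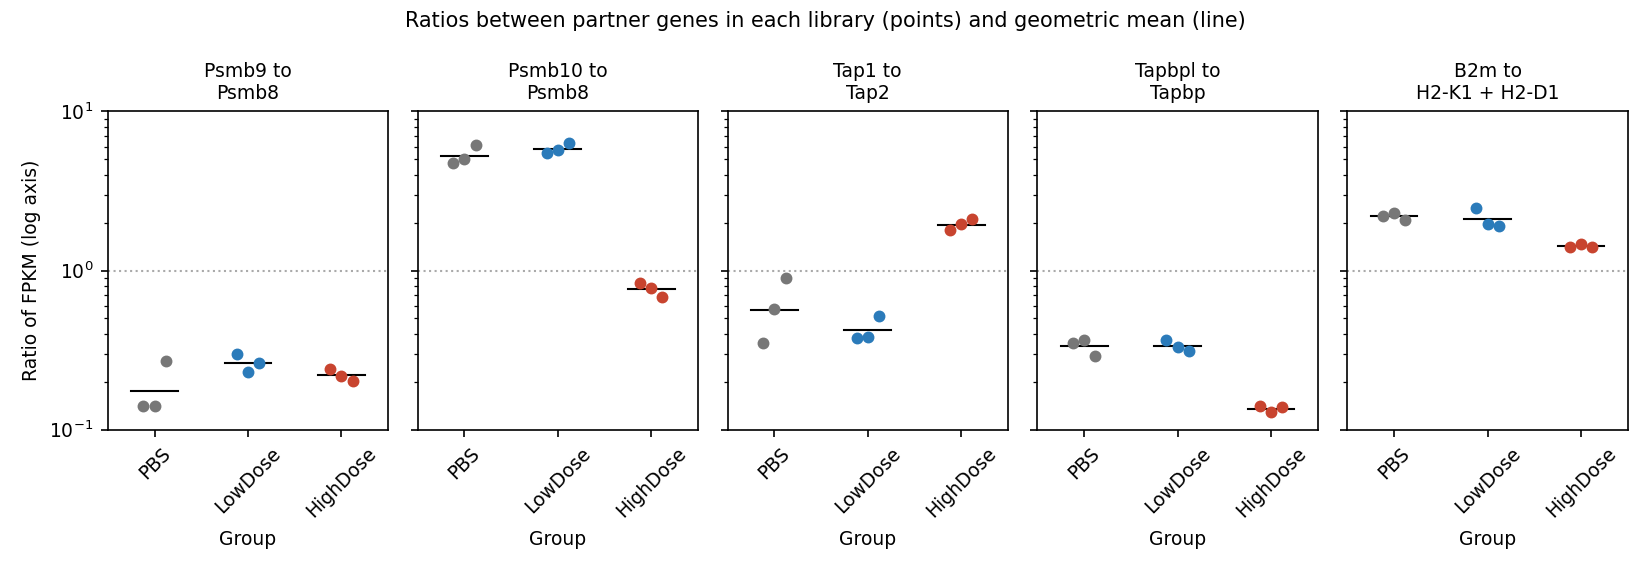
FPKM ratio of partner genes in every library, on a log axis, by group, with 1 point per library, the geometric mean as a line and a dotted line at a ratio of 1. Psmb10 to Psmb8, Tapbpl to Tapbp and B2m to H2-K1 plus H2-D1 are lower in the 3 HighDose libraries than in the 3 PBS libraries, Tap1 to Tap2 is higher, and Psmb9 to Psmb8 overlaps.

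The 3 HighDose libraries were not equal. HighDose replicate 1 was the lowest of the 3 in all 9 genes, as it was in 85.9% of the 1366 genes that rose. It reached 59.6% (Tap1) to 74.5% (Psmb10) of the mean of the other two HighDose libraries. The highest value was in replicate 2 for 4 genes and in replicate 3 for 5. All 9 genes remained called as higher against PBS when any 1 library was left out.

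Around the 9 genes, 7 lists of the pathway were counted in HighDose against PBS by edgeR's test, beside the 86.3% called higher of all tested genes. Of 5 proteasome activator genes, 3 were listed and all 3 rose, with a median log2 change of 2.54. Psme1, a subunit of the interferon-induced cap of the proteasome, rose by 2.54 ± 0.23, from 20.99, 20.4 and 20.5 CPM in PBS to 87.3, 141 and 133 CPM in HighDose. Its partner Psme2 rose by 2.24 ± 0.22, and Psme2b by 4.41 ± 0.64, but these 2 are near-identical copies among which reads could be split. None of 19 genes of the standard proteasome core and its assembly was among the listed genes, and they are not analysed here. Of 13 trimming enzymes and loading chaperones, 2 were listed and rose: Erap1, the aminopeptidase that trims peptides in the endoplasmic reticulum, by 2.07 ± 0.23, and the cytosolic aminopeptidase Lap3 by 0.96 ± 0.21.

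Of 22 class I heavy chain genes, 12 were listed, and all 11 that could be tested rose, with a median of 4.40, from H2-T24 (2.36 ± 0.25) to H2-Q7 (7.50 ± 0.35). Heavy chain genes are close copies of one another, so values of single members are uncertain. Of 13 class II presentation genes, 11 were listed and all 11 rose, with a median of 3.54, from H2-Ob (1.03 ± 0.49, adjusted p = 0.0411) to H2-Eb1 (5.03 ± 0.33). Among ubiquitin-like tagging genes, 7 of 8 were listed and all 7 rose, with a median of 5.43. They ran from Uba7 (4.28 ± 0.27), the activating enzyme of ISG15, to Isg15 itself (7.10 ± 0.34).

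Of 23 regulators, 13 were listed and all 11 that could be tested rose, with a median of 3.70. Among interferon-pathway transcription factors, Irf7 rose by 6.19 ± 0.29, Irf1 by 4.60 ± 0.25, Irf9 by 3.86 ± 0.25, Stat2 by 3.70 ± 0.24, Irf8 by 2.60 ± 0.23 and Irf2 by 1.54 ± 0.22. The feedback inhibitors Socs1 and Socs3 rose by 4.22 ± 0.37 and 3.54 ± 0.27, the kinase Jak2 by 1.16 ± 0.21 and the type I interferon receptor chain Ifnar2 by 0.98 ± 0.22. Irf1 was at 4.58, 6.34 and 5.35 CPM in PBS, 6.15, 5.80 and 5.29 CPM in LowDose and 109, 129.5 and 158 CPM in HighDose, with PBS and LowDose overlapping. The ligands were too low to be tested. Ifng had 1, 0 and 0 counts in PBS, 0 in each LowDose library and 19, 6 and 19 counts in HighDose, and Ifnb1 had 0 in each PBS and LowDose library and 19, 7 and 31 counts in HighDose. In LowDose against PBS no gene of these lists passed the test. An unadjusted p under 0.05 (edgeR) was found for 2 heavy chains, both higher, for H2-Eb1 (0.99) and for Irf7 (-0.80). Of all tested genes 11.7% had such a p. Irf7 was at 3.27, 5.76 and 4.52 CPM in PBS and lower, at 1.90, 3.01 and 2.94 CPM, in LowDose (adjusted p = 0.104, edgeR). The list medians in this comparison ran from -0.24 for ubiquitin-like tagging to 0.37 for class I heavy chains.

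**Figure D4:**
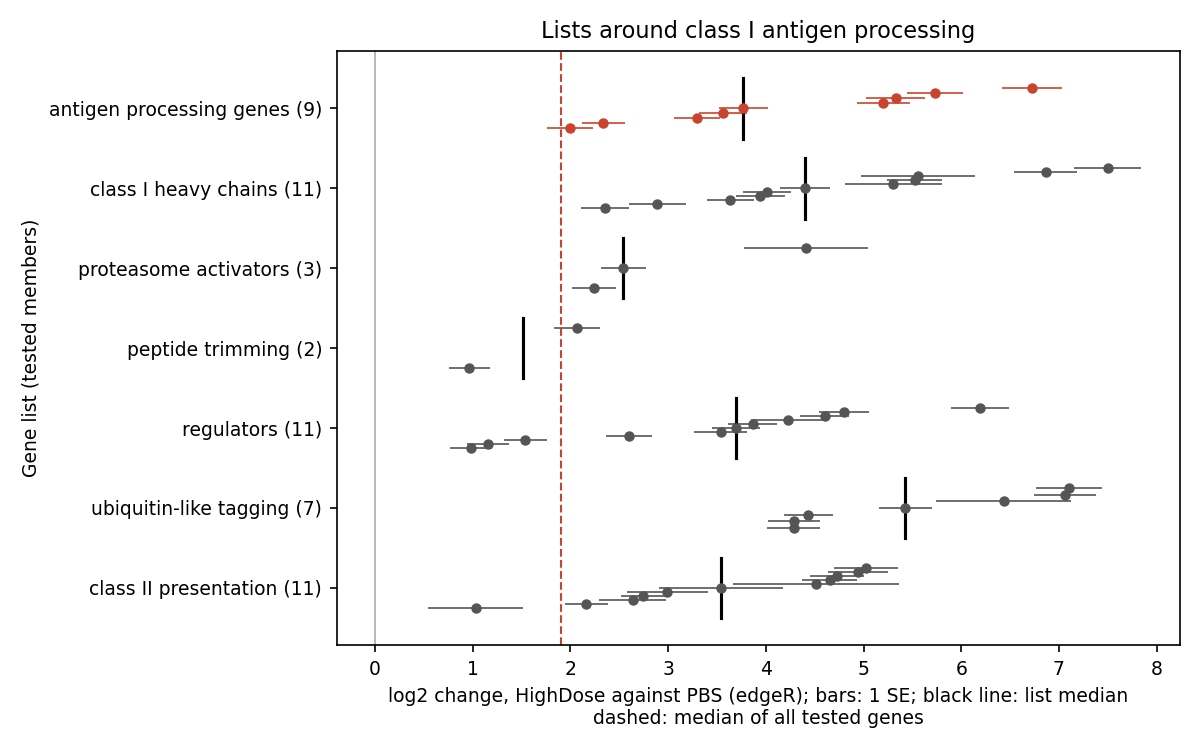
Log2 change of HighDose against PBS of every tested gene in the 9-gene set and in the pathway lists around it, with 1 point per gene, bars of 1 SE, the list's median as a black line and the median of all tested genes (1.90) as a dashed line. Ubiquitin-like tagging genes have the highest list median at 5.43, and the 2 trimming enzymes have the lowest at 1.52.

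The genes outside the set whose log2 CPM followed the mean of the 9 genes most closely over the 9 libraries were H2-K1, Irgm1, H2-D1, Ifit3 and H2-Q7, with Pearson r of 0.9989 to 0.9994 among 1512 genes compared. Of those, 72.2% had r above 0.9. The 9 points share their libraries and fall into a HighDose and a lower cluster, so these values describe the ranking only.

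Markers of other cells moved in the same libraries. Beside the calls counted below, 86.3% of all tested genes were called higher in HighDose against PBS by edgeR's test. In LowDose against PBS 2.59% were called in either direction. T cell markers (9 of 12 listed) summed to 0.581 to 1.48 CPM in PBS, 1.39 to 1.89 CPM in LowDose and 15.6 to 32.9 CPM in HighDose, and all 9 rose. Cd3d was at 0 in the PBS libraries and Cd8b1 at 0 in the LowDose libraries. All 9 cytotoxic and NK cell markers rose, from sums of 0.138 to 0.763 CPM in PBS and 0.506 to 0.588 CPM in LowDose to 62.4 to 114 CPM in HighDose. Monocyte and macrophage markers (5 of 8 listed) summed to 1.94 to 2.84, 2.08 to 3.17 and 141 to 247 CPM in the 3 groups, and 4 rose while 1 fell. Dendritic cell markers (5 of 8 listed) summed to 0.533 to 1.199, 1.60 to 2.83 and 16.3 to 33.1 CPM. All 4 that could be tested rose in HighDose, and 1 of them, Cd209a, also rose in LowDose, the only call in LowDose among these immune lists. B cell markers (5 of 5 listed) summed to 0.709 to 1.11, 0.337 to 0.674 and 3.59 to 8.54 CPM, and 3 of the 4 tested rose in HighDose. The sums do not tell more cells of a type from more transcript per cell. Cells of these types are known to express class I machinery at a high level, and their part in the rise of the 9 genes was not tested.

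Markers of resident cells moved too, and more cells of a type and more transcript per cell cannot be told apart. Of the 1583 tested genes, 86.3% were called higher and 169 genes lower in HighDose against PBS. In LowDose against PBS 34 genes were called lower. Microglia markers (7 of 12 listed, 6 higher and 1 lower) summed to 184 to 232 CPM in PBS, 183 to 203 CPM in LowDose and 419 to 482 CPM in HighDose. The astrocyte markers listed (2 of 7, Gfap and Vim) summed to 144 to 177, 128 to 200 and 444 to 633 CPM and rose. The 1 endothelial marker listed of 7, Vwf, went from 20.8 to 23.7 CPM in PBS to 38.02 to 60.4 CPM in HighDose. Of 8 oligodendrocyte markers 3 were listed, and all 3 fell in HighDose and 2 of them in LowDose. Striatal neuron markers (9 of 9 listed) summed to 817 to 1221 CPM in PBS, 283 to 669 CPM in LowDose and 275 to 318 CPM in HighDose. By the main test all 9 fell in HighDose and 8 in LowDose, where none of the 9 antigen processing genes was called. With the 3 scalings within the listed genes only 3, 3 and 2 of all tested genes were called lower in LowDose. Without LowDose replicate 3 there were 18. Most of the LowDose calls of striatal and oligodendrocyte markers thus depend on the scaling. The lists for cortical neurons, neurons in general and neutrophils had no listed gene, so the label brain ctx could not be checked against cortical markers.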

How the data were processed

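RNA from 9 libraries (3 each of PBS, LowDose and HighDose) was measured by sequencing. The authors deposited estimated counts per gene and library and, beside them, FPKM values, which are scaled to transcript length and to the library's total, per the file headers. The submitters' processing notes name mm10, DESeq2 and edgeR without a role. The sources used here name no aligner or counting tool and no rule by which the 1710 listed genes were picked. Counts were rounded first, since 7.66% to 14.0% of a library's values were not whole. Among the 9 genes, counts were not whole for Tapbpl in 1 PBS, 2 LowDose and 3 HighDose libraries, and in fewer for Psmb9, Tap1 and Tapbp.

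Library totals were recovered from counts, FPKM and length as the median over 23 to 68 single-transcript genes with at least 5 FPKM, 100 counts and 600 bases, with a scatter of 0.00764% to 0.0302%. The floor of 3 counts covers counting error only, while the 95% intervals of log2 changes come from the fitted SE and hold the spread between libraries. Listed counts made up 1.54% to 1.61% of the PBS libraries, 1.34% to 1.38% of LowDose and 3.90% to 6.04% of HighDose. Genes were matched by identifier to GENCODE M21, which holds 1704 of the 1710, and promoter sequences come from RefSeq.

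After filterByExpr (minimum count 10), 1583 genes were fitted in 1 model of the 3 groups by edgeR 4.0.16 under R 4.3.3 and compared by its quasi-likelihood F-test, adjusted by Benjamini-Hochberg over all 1583, at a threshold of 0.05. Levels carry an SD and log2 changes an SE, obtained as the change divided by the square root of F. Partner ratios were compared by exact permutation. The edgeR fit was tested on simulated data with 200 changed genes, as many raised as lowered, and with library totals known. Such data do not test the scaling of a table in which most genes move one way. Alternatives were TMM, DESeq2 size factors, the sum of listed counts, no filter, at least 1 CPM in 3 libraries, DESeq2 1.42.0, limma 3.58.1 on log2(FPKM + 0.1), 2 groups per fit, the replicate block, each library left out, and for the ratios 0.1 FPKM added or CPM. A paired exact test of the ratios was added after seeing the data.

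The 9 genes, the pathway and marker lists and the tests were chosen with earlier results of these data known. Named beside the 9 genes are the highest and lowest tested gene of each list, all listed regulators, the partners of the ratios and the 5 genes most like the mean of the 9. For 1 gene that this rule names, no result is reported here. Psme1 and single cell type markers, outside the rule, were named after their values were seen. Libraries with the same number had weak positive correlations between PBS and LowDose (r = 0.246, 0.165 and 0.137), so the numbers were also taken as pairs there. They were not taken as pairs between PBS and HighDose (0.0687, -0.00571 and 0.151) or between LowDose and HighDose (0.183, 0.0142 and 0.0833). These ranges overlap, and LowDose replicate 2 with HighDose replicate 3, of unlike number, had 0.131. Between PBS and LowDose, libraries of unlike number had r of -0.147 to 0.0133. Each gene was centred on its group of 3 first, so positive values for like numbers force lower ones for unlike numbers. The numbers come from the sample titles, and the pairs were picked by these correlations in the same libraries, so the pairing is not established.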

Additional observations from a re-analysis of the deposited data

How the results depend on the processing

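The main limit is the scaling, since the listed genes were chosen by a difference between groups and most of them moved one way. With TMM, with DESeq2 size factors and with listed counts as totals, the genes called in HighDose against PBS were 600, 605 and 607 higher and 464, 457 and 454 lower, instead of 1366 and 169, and in HighDose against LowDose 565, 573 and 524 higher and 461, 448 and 524 lower, instead of 1394 and 112. These settings took the median of all tested genes in HighDose against PBS from 1.90 to 0.19, 0.22 and 0.22. Of the 9 genes, 8 were then called higher against PBS, and 8, 8 and 7 against LowDose. Tapbpl was lost against PBS (0.29, 0.32 and 0.32) and against LowDose (0.07 and 0.10). Scaled to listed counts, Tapbpl was -0.074 against LowDose and Psmb10 was 0.26, neither called. All other alternatives called all 9 genes higher in both HighDose comparisons.

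In LowDose against PBS none of the 9 genes was called under any alternative. At an unadjusted p under 0.05 there were 0 of 9 by the main test, 2 with TMM or DESeq2 size factors, 6 with listed counts as totals, 1 with limma and 0 to 2 with 1 library left out. The count of genes called higher was 7, and 3 with TMM, 3 with DESeq2 size factors, 11 with the 2 groups alone, 12 with the replicate block and 5 to 22 with 1 library left out. The count called lower was 34, and 3, 3 and 2 with the scalings within the listed genes and 18 to 57 with 1 library left out. Values near 0 changed sign, Psmb8 from 0.05 to a range of -0.12 to 0.15 with 1 library left out. Tap1 went from 0.07 to -0.054 with limma and ranged from -0.091 to 0.25 with 1 library left out. The cause was not tested. The replicate block changed no call of the 9 genes. The 5 partner ratios kept their direction under all alternatives. Psmb9 and Nlrc5 rest on few counts in PBS and LowDose, where depth limits what change can be seen.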

Other observations

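The transcript length that the deposited count, FPKM and library total together imply differed between genes in how steady it was. It was 1310 to 1311 bases for Psmb10, 860 bases for B2m and 2351 to 2355 bases for Tapbpl in all 9 libraries. For Tap1 it was 2973, 2817 and 2000 bases in PBS, 2932, 2954 and 2563 bases in LowDose and 2949, 2924 and 2877 bases in HighDose. For Nlrc5 it ran from 3029 to 6658 bases over the 9 libraries, where rounding of the deposited FPKM accounts for up to 4.55%. For Psmb9 it was 1351 to 1363 bases in the PBS and LowDose libraries and 1265, 1269 and 1300 bases in the HighDose libraries, below all 6 others, with rounding of up to 1.16%. For Psmb8 it was 920 to 1052 bases.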
